A study of Rattus norvegicus with 6 samples.

Results

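The genes described here are 33 rat genes of inflammatory cytokines, chemokines and NF-kB signalling, taken as a fixed list of gene symbols and matched to array probes that carry that single symbol in the platform annotation. All 33 genes had a probe, with 47 probes in all among the 33849 of the series table, and 46 of these probes could be tested. The RNA came from cultured brainstem cells of 2 inbred strains, the spontaneously hypertensive rat (SHR), which develops high blood pressure with age, and the Wistar Kyoto rat (WKY), which stays normotensive and serves as the control. Each strain was measured on 3 single-colour CodeLink arrays, each with RNA of cells pooled from 3 dishes, and values are log2 intensities after the submitters' quantile normalization. No treatment, age, sex, allele or time in culture is stated for either strain in the labels used here. The design text calls the 3 replicates of a strain biological but does not say which animals or litters the dishes came from, so p-values measure the spread between these pools. Whether the inflammatory genes differ between the cultures of the hypertensive and the normotensive strain is the comparison described.

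NF-kB is a family of dimeric transcription factors, among them the p65 subunit encoded by Rela and the p50 subunit made from Nfkb1. In resting cells inhibitor proteins such as the one encoded by Nfkbia hold the dimers in the cytoplasm, and signals from Toll-like receptors, the interleukin-1 receptor (both through the adaptor Myd88) or tumor necrosis factor receptors release them. The genes they switch on include cytokines, chemokines, adhesion molecules and Nfkbia itself, and in cultures of brain cells microglia and astrocytes are main sources of these products.

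Promoter sequences of 27 of the 33 genes were taken from RefSeq (build GRCr8, the 250 bases before the annotated start), because NF-kB binds a short motif, the kappaB decamer, near the start of many of these genes. Ccl2, Ccl3, Ccl4, Ccl5, Il10 and Lif had no promoter entry and were not searched. The decamer was searched on both strands, with overlapping matches counted at each position. It was found in 10 of the 27 promoters (37%) and in 3.54% of 33469 promoters of the same length. The genes with a match were Il1r1, Il6, Socs3, Lcn2, Ccl20, Cxcl1, Cxcl2, Vcam1, Tlr2 and Nfkbia. A core of the interferon response element (GAAA, any 2 bases and GAAA again, both strands) was found in 3 of them (11.1%), Tnfrsf1b, Vcam1 and Myd88, against 3.41% of all promoters, and did not overlap a kappaB match. These are matches of letters, not sites shown to be bound. The promoters below are those of the 3 chemokine genes with a match, which had their highest value on the same SHR array (a choice made once their values were known), of the cytokine gene Il6 and of the inhibitor gene Nfkbia. Ccl7, Cxcl12 and Osmr were also highest on that array but had no match, and Ccl2 and Lif, highest there too, were not searched. The other genes with a match, Il6 and Nfkbia among them, were highest on WKY arrays at their brightest probes. Capitals mark the kappaB matches.
Cxcl1, chr14:17479322-17479571, minus strand: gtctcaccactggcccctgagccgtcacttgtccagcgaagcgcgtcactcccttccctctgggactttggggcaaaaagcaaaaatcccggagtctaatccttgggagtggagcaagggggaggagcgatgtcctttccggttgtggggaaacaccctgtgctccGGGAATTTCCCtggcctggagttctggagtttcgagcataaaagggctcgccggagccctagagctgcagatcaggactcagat
Cxcl2, chr14:17467256-17467505, minus strand: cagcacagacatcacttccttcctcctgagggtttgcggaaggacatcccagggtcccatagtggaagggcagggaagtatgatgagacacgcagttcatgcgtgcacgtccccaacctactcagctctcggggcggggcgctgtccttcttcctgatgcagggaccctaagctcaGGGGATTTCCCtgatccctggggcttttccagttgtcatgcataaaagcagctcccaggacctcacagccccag
Ccl20, chr9:91836909-91837158, plus strand: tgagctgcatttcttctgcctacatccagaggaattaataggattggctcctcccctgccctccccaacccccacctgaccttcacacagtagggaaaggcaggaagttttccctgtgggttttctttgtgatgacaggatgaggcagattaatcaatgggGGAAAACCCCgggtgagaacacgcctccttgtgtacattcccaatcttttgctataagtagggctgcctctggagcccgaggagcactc
Il6, chr4:5894576-5894825, minus strand: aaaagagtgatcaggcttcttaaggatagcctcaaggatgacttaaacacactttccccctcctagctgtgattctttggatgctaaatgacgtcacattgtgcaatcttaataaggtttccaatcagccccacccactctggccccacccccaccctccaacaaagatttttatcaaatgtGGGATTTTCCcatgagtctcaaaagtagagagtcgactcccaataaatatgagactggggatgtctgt
Nfkbia, chr6:78597073-78597322, minus strand: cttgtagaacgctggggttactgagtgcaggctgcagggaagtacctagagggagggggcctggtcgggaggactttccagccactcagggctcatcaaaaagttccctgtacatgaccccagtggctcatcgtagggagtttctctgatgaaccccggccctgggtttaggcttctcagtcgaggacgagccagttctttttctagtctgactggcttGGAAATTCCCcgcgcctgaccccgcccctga
The capitals begin 84 bases before the start in Cxcl1, 74 in Cxcl2, 89 in Ccl20, 68 in Il6 and 31 in Nfkbia. In Cxcl1 and in Cxcl2 they join 2 matches that are offset by a base.

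Most of the inflammatory genes had a lower mean signal in SHR than in WKY, by small amounts, and none passed the test over all probes. At the brightest probe of each gene the SHR mean was lower for 25 of 33 genes and higher for 8, with a median difference of -0.17 (log2, SHR minus WKY), where 51.6% of all tested probes and 50.2% of 12082 named genes were lower and the median of the named genes was -0.0012. The count was 17 of 33 with intensities not normalized between arrays, where the median of the named genes was 0.14 and 26.5% of them were lower. The median difference of the 33 genes was -0.071 without WKY 3 and -0.20 without SHR 2. In RNA of mixed cultures, fewer cells of a type and less RNA per cell cannot be told apart. In limma, 0 of the 46 probes passed an adjusted p of 0.05 (background 0%: 0 of 33249 probes passed). At an unadjusted p under 0.05 there was 1 gene higher, Cxcl12 (background 3.65% of all probes higher), and 1 gene lower, Tnfrsf1b (background 4.01% lower), so 2 of 46 probes stood beside a background of 7.65% in either direction. The SHR values lay wholly below the WKY values at 4 of 46 probes (Il18, Myd88, Rela and Nfkbia; background 7.48%) and wholly above them at 1 (Cxcl12; background 6.35%), shares near or under the background.

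**Figure D1:**
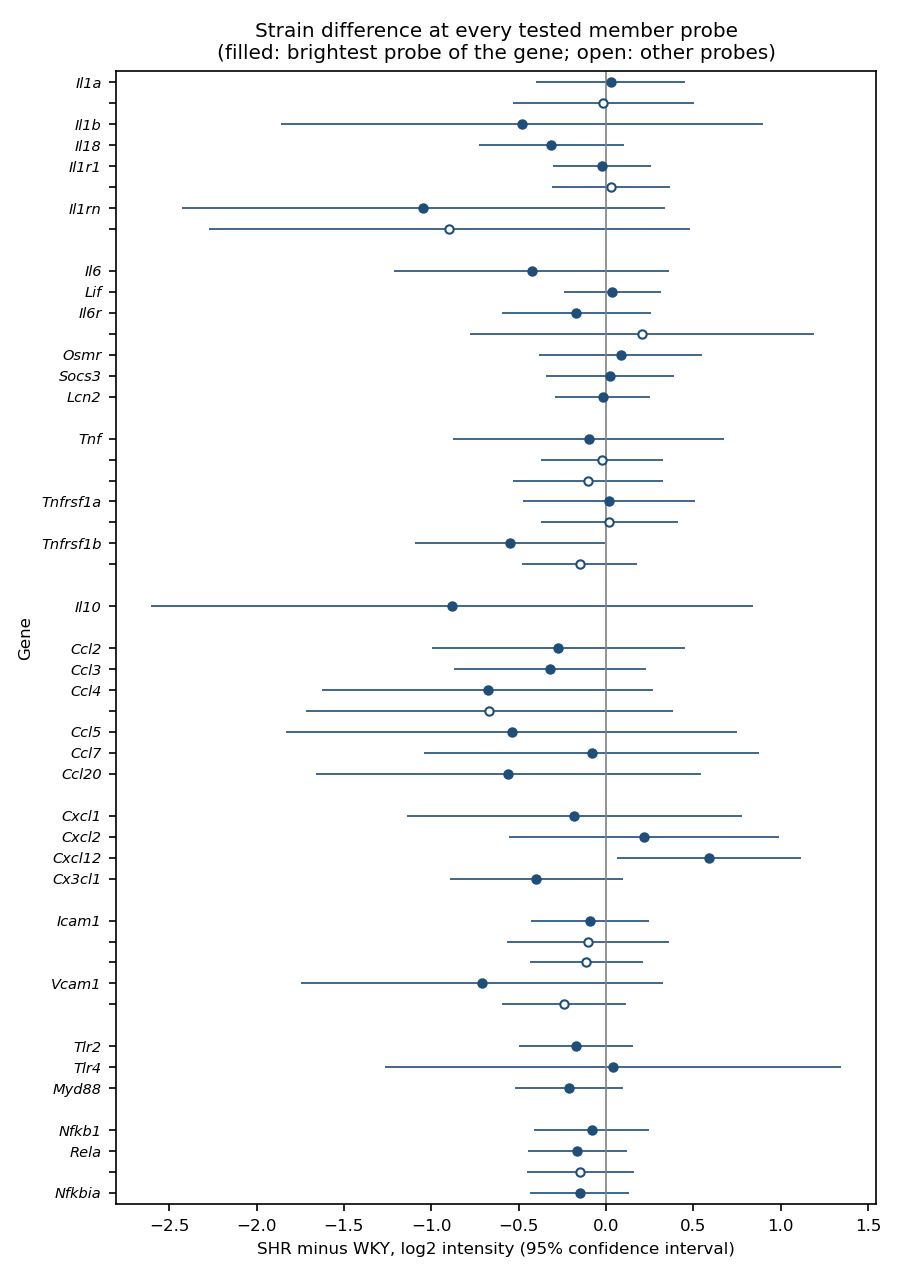
Strain difference (SHR minus WKY, log2 intensity, horizontal axis) with its 95% confidence interval from limma at the 46 tested probes, grouped by role (filled points are the brightest probe of a gene, open points its other probes). The points of 25 of 33 brightest probes lie left of 0 (17 with intensities not normalized between arrays), and the intervals of Cxcl12 and of the brightest Tnfrsf1b probe are the 2 that leave out 0.

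Single pools differed more at these genes than at the median named gene. The range over the 6 arrays at the brightest probe had a median of 0.99 for the 33 genes and 0.56 for all named genes, and the median SD within a strain was 0.29 against 0.20. These medians are given as a description, with no test. Of the 33 genes, 14 were brightest on WKY 3 and 8 on SHR 2, where 20.5% and 12.3% of named genes were brightest. The lowest value was on SHR 3 for 16 genes and on SHR 1 for 10, against 19.9% and 14.9% of named genes. On WKY 3, 9 genes stood more than 0.5 (log2) above the mean of the other 2 arrays of the strain (27.3%, against 5.72% of named genes), and on SHR 2 there were 10 such genes (30.3%, against 6.84%). On SHR 3, 9 genes stood more than 0.5 below (27.3%, against 5.07%), on WKY 1, 8 genes (24.2%, against 7.58%) and on SHR 1, 7 genes (21.2%, against 5.25%). Averaged over the 33 genes, each centred on its mean of the 6 arrays, the levels were -0.16, 0.15 and -0.34 on SHR 1, 2 and 3 and -0.053, -0.0077 and 0.41 on WKY 1, 2 and 3. The strains overlap there, and pools of one strain spread by more than the strain means differ (-0.23, with -0.085 without WKY 3, -0.12 without SHR 3 and -0.36 without SHR 2). With intensities not normalized between arrays, SHR 2 (0.31) stood above WKY 3 (0.22).

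**Figure D2:**
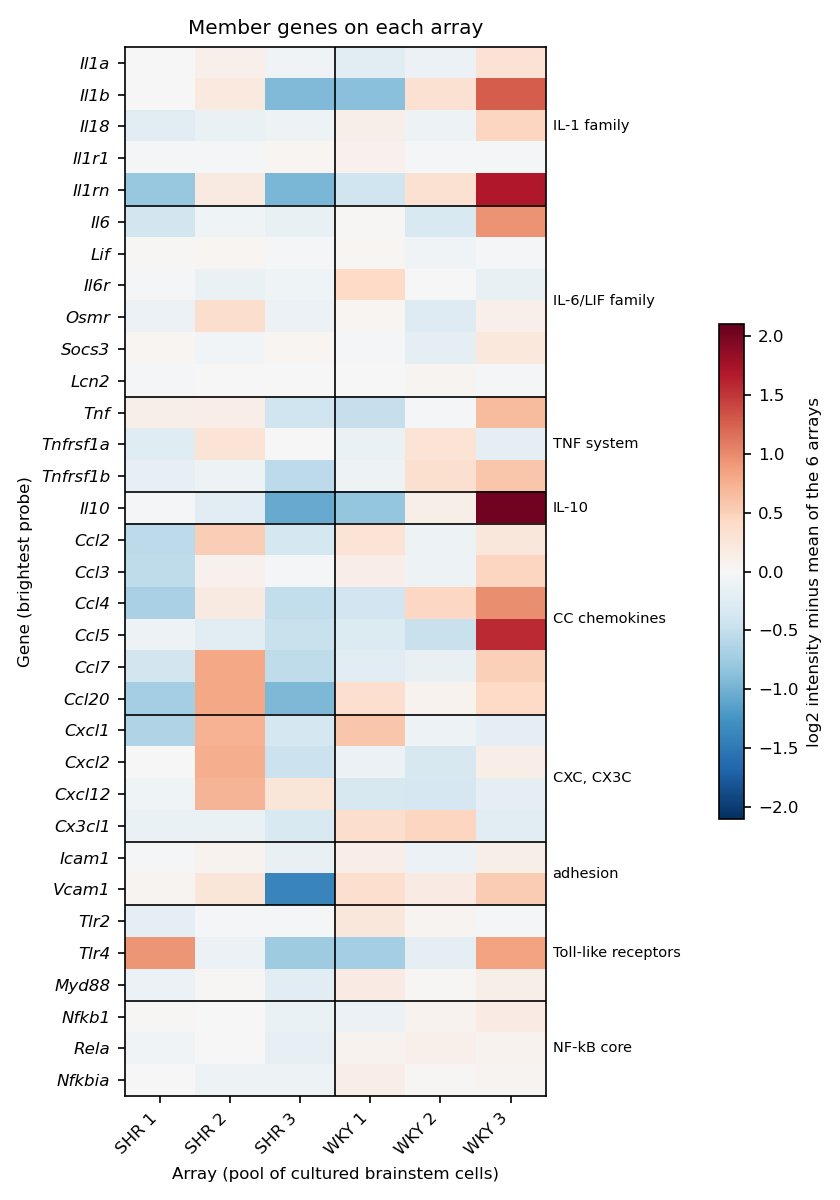
Log2 intensity of the 33 genes (rows, brightest probe, grouped by role) on the 6 arrays (columns), as the difference from the gene's mean over the arrays, red above and blue below. The 2 columns with most red are WKY 3, with Il10, Il1rn, Ccl5 and Il1b highest, and SHR 2, with Ccl7, Ccl20, Cxcl1, Cxcl2 and Cxcl12 highest.

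The interleukin-1 family showed the WKY 3 pattern at the brightest probes of 4 of its 5 genes. The second Il1a probe was highest on WKY 2 (10.29, against 10.27 on WKY 3). Il1b, the secreted cytokine that activates the interleukin-1 receptor, had log2 values of 10.49, 10.69 and 9.57 on SHR 1, 2 and 3 and of 9.62, 10.82 and 11.76 on WKY 1, 2 and 3. The strains overlap, WKY 3 is high, and SHR 3 and WKY 1 are about equally low. Its difference was -0.48 ± 0.57 (SE, 3 arrays per strain, adjusted p = 0.838 in limma) and turned to 0.033 without WKY 3 (-0.14 without SHR 3 and -1.04 without WKY 1). Il1rn, which encodes the receptor antagonist that blocks this cytokine, had 10.91, 11.89 and 10.73 on the SHR arrays against 11.28, 12.02 and 13.38 on the WKY arrays. It had the largest difference of the 33 genes, -1.05 ± 0.57 (2.07-fold, adjusted p = 0.693 in limma), with -0.90 ± 0.57 at its second probe, and -0.47 without WKY 3. WKY 3 was again the highest array and the strains overlap.

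Il18, a cytokine of the same family that is matured by caspase-1, had 11.81, 11.89 and 11.92 on the SHR arrays against 12.16, 11.92 and 12.48 on the WKY arrays. The SHR values are all lower, but SHR 3 and WKY 2 are equal to 2 decimals. Its difference was -0.31 ± 0.17 (adjusted p = 0.693 in limma) and -0.16 without WKY 3. Il1a, the second ligand of the receptor, gave 0.026 ± 0.18, and the receptor gene Il1r1 gave -0.024 ± 0.12 with a range over the 6 arrays of 0.12, one of the narrowest on the array. Both changed sign at their second probe.

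In the tumor necrosis factor system the ligand again had its highest value on WKY 3 at its brightest probe. Tnf, the cytokine itself, had 10.89, 10.92 and 10.35 on the SHR arrays against 10.28, 10.74 and 11.43 on the WKY arrays. SHR 3 and WKY 1 are low, as for Il1b, and the strains overlap. The difference was -0.099 ± 0.32 (-0.023 and -0.10 at the other 2 probes). The second Tnf probe had 10.24, 10.49 and 10.33 on the SHR arrays against 10.26, 10.56 and 10.31 on the WKY arrays. WKY 2 is highest there and WKY 3 is not high. The dimmest Tnf probe had 7.97, 7.94 and 7.98 against 7.85, 7.94 and 8.41, with WKY 3 highest. Tnfrsf1b, the receptor found mainly on immune cells and microglia, had 11.44, 11.51 and 11.05 on the SHR arrays against 11.50, 11.95 and 12.20 on the WKY arrays. Only WKY 1 falls within the SHR range. Its difference of -0.55 ± 0.23 (1.46-fold lower in SHR) did not pass (adjusted p = 0.651 in limma). At the second probe it was -0.15 ± 0.14, with 10.12, 10.18 and 9.92 on the SHR arrays against 10.33, 10.23 and 10.12 on the WKY arrays. Tnfrsf1a, the receptor most cell types carry, gave 0.019 ± 0.20, and 0.017 ± 0.16 at its second probe.

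Il10, a cytokine that restrains inflammatory responses, had the widest range of the 33 genes, 3.09. Its values were 7.22, 7.03 and 6.19 on the SHR arrays against 6.43, 7.37 and 9.27 on the WKY arrays. WKY 3 stands far above the next array, WKY 2, and the other arrays overlap. The difference of -0.88 ± 0.72 became -0.092 without WKY 3, -0.57 without SHR 3 and -1.51 without WKY 1. The probe is dim, at the 25.9th percentile of mean signal over all probes.

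Of the interleukin-6 group, Il6 itself had 7.52, 7.82 and 7.76 on the SHR arrays against 7.93, 7.59 and 8.86 on the WKY arrays. Its value on WKY 3 exceeds the other 5, among which the strains overlap. The difference was -0.43 ± 0.33, -0.060 without WKY 3 and -0.70 without WKY 2. The other genes of the group differed by less than their errors. Osmr, the oncostatin M receptor, gave 0.083 ± 0.19, and Il6r, the interleukin-6 receptor, gave -0.17 ± 0.18 (-0.0037 without WKY 1 and -0.29 without WKY 3) and, on 5 arrays at its second probe, 0.21 ± 0.39. Socs3, a feedback inhibitor of the receptor kinases, gave 0.022 ± 0.15, and the cytokine gene Lif gave 0.037 ± 0.12. Lcn2, an iron-carrier binding protein secreted by reactive astrocytes, gave -0.020 ± 0.11. Its values lay between 15.11 and 15.21 on all arrays, close to the highest log2 value of the series table, 15.34. Whether the upper end of the scale limited its range was not tested.

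All 6 CC chemokine genes had a lower mean in SHR (5 of 6 with intensities not normalized between arrays, where Ccl7 gave 0.080), with a median difference of -0.43, and none passed. Without WKY 3, 4 of 6 were lower and the median was -0.19, and without SHR 1 it was -0.24. Ccl2, which attracts monocytes, had 11.15, 12.21 and 11.32 on the SHR arrays against 11.97, 11.58 and 11.94 on the WKY arrays. SHR 2 is the highest of the 6 arrays and SHR 1 and 3 are the lowest, so the difference, -0.27 ± 0.30, is within the spread of SHR. It was -0.066 without SHR 1, -0.15 without SHR 3 and -0.60 without SHR 2. Ccl7, a related monocyte attractant, repeated this with 11.60, 12.79 and 11.45 on the SHR arrays against 11.77, 11.83 and 12.49 on the WKY arrays (its arrays are given, like those of Ccl20, Ccl4, Ccl5, Cxcl1, Cxcl2 and Cx3cl1, after their values were seen). The Ccl7 difference was -0.082 ± 0.40 and reversed under 4 of 16 alternatives. Ccl20, a ligand for the receptor Ccr6, had 10.63, 12.16 and 10.40 on the SHR arrays against 11.70, 11.41 and 11.76 on the WKY arrays. SHR 1 and 3 lie below every WKY array and SHR 2 lies above them all. Its difference was -0.56 ± 0.46, -1.11 without SHR 2, -0.34 without SHR 1 and -0.23 without SHR 3. The other Ccl20 probe held only the missing-value code on all 6 arrays before normalization and values below 0 after it, and could not be tested.

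Ccl4 and Ccl5 followed WKY 3 more than SHR 2. Ccl4, a chemokine released by activated microglia, had 10.36, 11.23 and 10.53 on the SHR arrays against 10.65, 11.49 and 12.01 on the WKY arrays. Both its probes gave nearly the same difference, -0.68 ± 0.39 and -0.67 ± 0.44. At the brighter one it was -0.36 without WKY 3 and -1.04 without WKY 1. Ccl5, which attracts T cells and monocytes, had 11.94, 11.81 and 11.57 on the SHR arrays against 11.75, 11.57 and 13.62 on the WKY arrays. At the other 5 arrays it lay between 11.57 and 11.94 and WKY 3 alone stood far above, so that the difference of -0.54 ± 0.53 turned to 0.11 without that array (-0.82 without WKY 1 and -0.91 without WKY 2). Ccl3, a macrophage inflammatory protein like Ccl4, had a narrower range (0.99) and a difference of -0.32 ± 0.23, which was -0.13 without SHR 1 and -0.17 without WKY 3.

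Among the CXC chemokines, the neutrophil attractants Cxcl1 and Cxcl2 were also highest on SHR 2. Cxcl1 had 10.76, 12.12 and 11.03 on the SHR arrays against 11.98, 11.28 and 11.20 on the WKY arrays, a difference of -0.18 ± 0.40. WKY 1 is nearly as high as SHR 2, unlike in Cxcl2. Leaving out each array in turn, the Cxcl1 difference moved by over 1.5 times each time, to 0.092 without SHR 1, 0.066 without WKY 1, -0.59 without SHR 2, -0.043 without SHR 3, -0.28 without WKY 2 and -0.32 without WKY 3. Cxcl2 had 8.26, 9.02 and 7.80 on the SHR arrays against 8.12, 7.91 and 8.39 on the WKY arrays, a difference of 0.22 ± 0.32 that turned to -0.11 without SHR 2 (0.49 without SHR 3, 0.10 without WKY 2 and 0.34 without WKY 3). In both genes the strains overlap and the difference is smaller than its error.

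Cxcl12, a constitutively made chemokine that retains and guides cells carrying Cxcr4, was the gene of the 33 with the highest level in SHR relative to WKY. It had 13.35, 14.16 and 13.69 on the SHR arrays against 13.11, 13.09 and 13.24 on the WKY arrays. All SHR arrays exceed all WKY arrays, and the WKY arrays differ little. The difference of 0.59 ± 0.22 (95% interval 0.064 to 1.11) did not pass over all probes (adjusted p = 0.614 in limma), and was 0.38 without SHR 2. Markers of fibroblasts and meningeal cells, which also make this chemokine, also had higher means in SHR, with 9 of 12 tested genes above 0. Of the 12, 5 were higher at an unadjusted p under 0.05 (background 3.65% of all probes) and 0 lower. With intensities not normalized between arrays, 2 of 12 were below 0, against 26.5% of named genes. The array levels of these markers were -0.0023, 0.36 and 0.54 on the SHR arrays against -0.12, -0.25 and -0.54 on the WKY arrays, and their part in the Cxcl12 difference was not tested. Cx3cl1, the membrane-bound chemokine through which neurons signal to microglia, had 13.21, 13.21 and 13.04 on the SHR arrays against 13.73, 13.80 and 13.13 on the WKY arrays. WKY 3, high for so many of the other genes, is low here, and the difference was -0.40 ± 0.21 (-0.61 without WKY 3).

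The adhesion molecules to which leukocytes bind differed from each other in spread. Vcam1 had 12.64, 12.83 and 11.20 on the SHR arrays against 12.93, 12.75 and 13.12 on the WKY arrays. SHR 3 alone is low, and the difference of -0.71 ± 0.43 was -0.20 without it. The second Vcam1 probe, with 12.39, 12.44 and 12.14 on the SHR arrays against 12.55, 12.43 and 12.71 on the WKY arrays, gave -0.24 ± 0.15. Icam1 had 12.24, 12.35 and 12.13 on the SHR arrays against 12.43, 12.16 and 12.41 on the WKY arrays, with overlap. Its 3 probes gave -0.090 ± 0.14, -0.10 ± 0.19 and -0.11 ± 0.13.

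**Figure D3:**
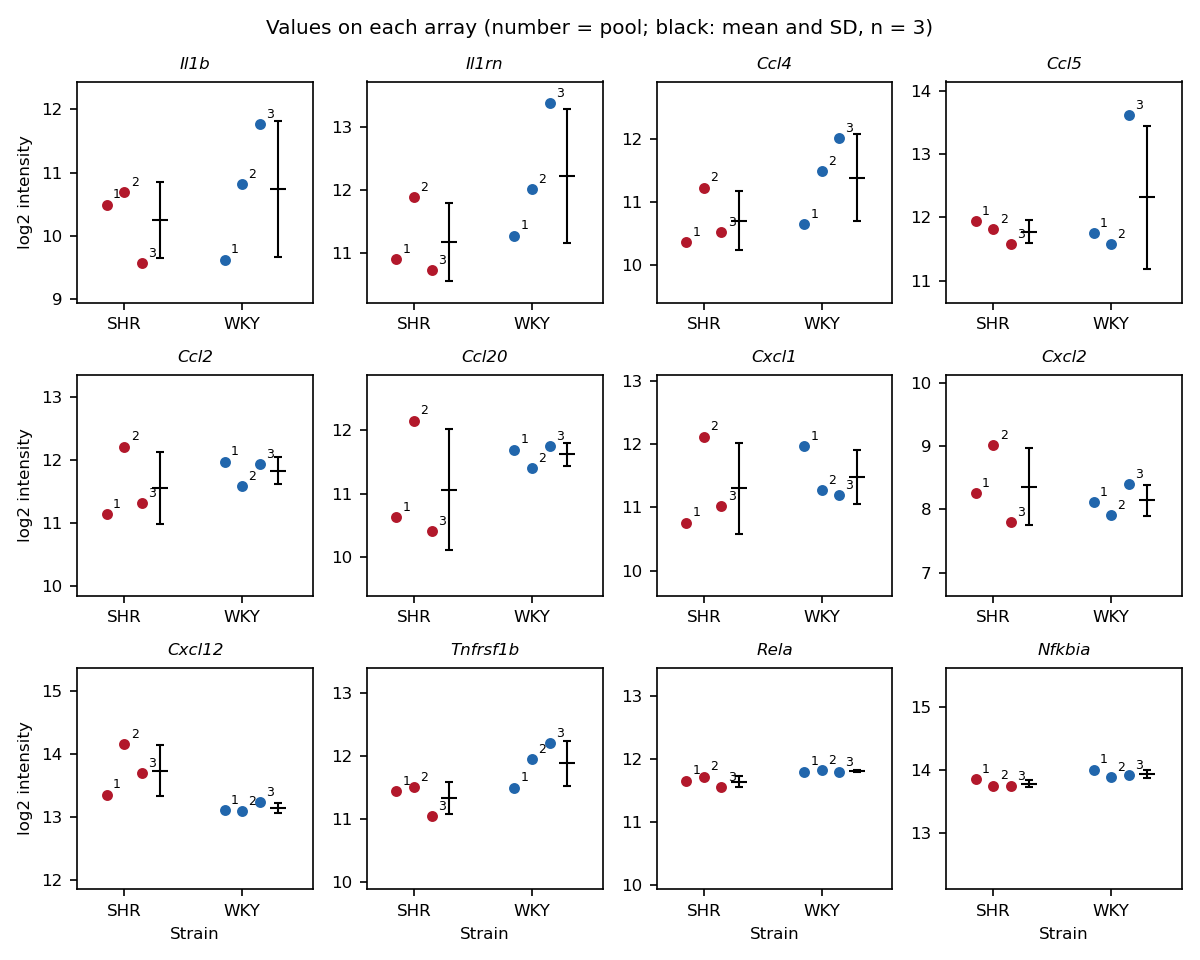
Log2 intensity (vertical axis, each panel spanning the same number of units) of 12 of the genes on each SHR (red) and WKY (blue) array, with the pool number beside each point and the mean and SD (n = 3) in black. Il1b, Il1rn, Ccl4 and Ccl5 are highest on WKY 3, Ccl2, Ccl20, Cxcl1, Cxcl2 and Cxcl12 are highest on SHR 2, and Rela and Nfkbia differ little between arrays.

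The genes of the NF-kB core had narrower ranges over the pools than the chemokines. Rela, which encodes the p65 subunit, had 11.65, 11.72 and 11.55 on the SHR arrays against 11.79, 11.82 and 11.79 on the WKY arrays. Nfkbia, the inhibitor gene that NF-kB induces, had 13.85, 13.75 and 13.75 on the SHR arrays against 14.00, 13.89 and 13.91 on the WKY arrays. For both genes every SHR value is below every WKY value, by a small margin, and the second Rela probe overlaps. The differences were -0.16 ± 0.12 for Rela (-0.15 ± 0.13 at its second probe) and -0.15 ± 0.12 for Nfkbia, 1.12-fold and 1.11-fold lower, and both became slightly positive, 0.015 and 0.0014, with intensities not normalized between arrays. Nfkb1 gave -0.081 ± 0.14. The ranges over 6 arrays of these 3 genes were 0.26 to 0.32, against 0.99 to 2.05 for the 6 CC chemokines.

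Of the genes upstream, Myd88 had 9.80, 9.94 and 9.69 on the SHR arrays against 10.09, 9.95 and 10.04 on the WKY arrays, with SHR 2 and WKY 2 about equal and no overlap. Its difference was -0.21 ± 0.13 (adjusted p = 0.711 in limma), and -0.031 with intensities not normalized between arrays. Tlr2, a receptor for bacterial lipoproteins, gave -0.17 ± 0.13 (-0.096 without WKY 1). Tlr4, the receptor for lipopolysaccharide, had 7.13, 6.07 and 5.45 on the SHR arrays against 5.48, 6.02 and 7.05 on the WKY arrays. These values overlap fully and the difference was 0.039 ± 0.54. The SD of Tlr4 was 0.85 within SHR and 0.80 within WKY, and the confidence interval from limma ran from -1.27 to 1.35. With this spread, a Tlr4 difference inside that interval was not excluded. The probe is among the dimmest 10% (9.34th percentile), and the part of its low signal in the spread was not tested. Of the 11 genes with several tested probes, 8 had the same sign at all of them.

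In the wider pathway, from 9 lists that exclude the 33 genes, 11 of 160 tested genes had an unadjusted p under 0.05 (6.88%), close to the background of 6.84% of named genes, and none passed over all probes. Of 24 tested other genes of the NF-kB pathway, 0 were higher and 1 was lower, Traf6, an adaptor ubiquitin ligase of Toll-like and interleukin-1 receptors, at -0.39 ± 0.12. Its values were 8.07, 7.97 and 8.09 on the SHR arrays against 8.53, 8.37 and 8.42 on the WKY arrays. The next genes were the receptor kinase gene Irak2 (-0.33 ± 0.14), Nfkb2, which encodes the p52 precursor (-0.29 ± 0.12), and the inhibitor gene Nfkbib (-0.43 ± 0.19). In this list 16 of 24 genes lay below 0, at a median difference of -0.081, or 9 of 24 and 0.084 with intensities not normalized between arrays. Among the 9 lists, medians ran from -0.091 for other chemokines (14 of 20 below 0) to 0.21 for chemokine receptors (10 of 15 above 0). Without WKY 3 these medians were 0.11 and 0.052. Of the other genes of leukocyte adhesion, 8 of 12 lay above 0. Of 8 other genes of Toll-like receptor signalling, 0 were higher and 1 was lower (Lbp, -0.67 ± 0.27, a dim probe, and -0.39 without SHR 3). Of 20 genes of the receptor kinase and acute phase list, 0 were higher and 0 lower, and the smallest p belonged to Stat5a (-0.33 ± 0.16).

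Of 28 other cytokine genes, 0 were higher and 1 was lower (Il13, -0.56 ± 0.19, also dim), and of 21 other cytokine receptor genes, 1 was higher, Tnfrsf11b, the decoy receptor osteoprotegerin (0.55 ± 0.22), and 0 were lower. Other chemokine genes went both ways. Of 20, Ppbp (0.69 ± 0.16) and the eosinophil attractant Ccl11 (1.16 ± 0.40) were higher and Ccl6 (-0.64 ± 0.21) was lower. Ccl6 was the bright one of the 3, with 13.78, 14.06 and 13.47 on the SHR arrays against 14.46, 14.13 and 14.65 on the WKY arrays. Of 15 chemokine receptor genes, 1 was higher, Ccr2, the receptor of Ccl2 and Ccl7 (0.70 ± 0.24, with 7.04, 7.31 and 6.96 on the SHR arrays against 6.26, 6.89 and 6.07 on the WKY arrays), and 0 were lower. The Ccr2 probe is among the dimmest 25% of probes, as are those of Ppbp and Ccl11. Of 12 enzymes and proteases that NF-kB can induce, 1 was higher, the coagulation initiator F3 (0.83 ± 0.27), and 0 were lower.

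Of 12 other genes of leukocyte adhesion, 1 was higher, the junction protein gene F11r (1.07 ± 0.27), and 1 was lower, Itgb2, the integrin chain through which leukocytes and microglia bind Icam1. Itgb2 had 11.39, 11.58 and 11.49 on the SHR arrays against 12.29, 12.07 and 12.58 on the WKY arrays, with no overlap, and a difference of -0.82 ± 0.17 (adjusted p = 0.386 in limma). Icam1 itself, as given above, differed by less than its error.

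The cultures held RNA of several cell types. Among the brightest markers were C1qa, Aif1 and Csf1r of microglia, Slc1a3, Gja1 and Aqp4 of astrocytes, Cnp and Mbp of oligodendrocytes, and Uchl1 and Gap43 of neurons. Microglia and macrophage markers were below 0 at 14 of 18 genes (9 of 18 with intensities not normalized between arrays), with array levels of -0.026, -0.038 and -0.12 on the SHR arrays against 0.014, 0.092 and 0.083 on the WKY arrays. These levels do not overlap but are far closer together than those of the chemokines. The bright markers C1qa (-0.046 ± 0.12), Aif1 (0.034 ± 0.12) and Csf1r (-0.028 ± 0.12) differed little, near the top of the scale, while Lyz2 gave -1.08 ± 0.41 (-0.65 without SHR 3). The dimmest tested markers were Trem2 and Fcer1g, and Fcer1g held no value above 0 on WKY 3. Markers of the oligodendrocyte lineage were below 0 at 10 of 11 genes (8 of 11 with intensities not normalized between arrays), with a median of -0.76 (-0.50 without SHR 3) and array levels of -0.51, 0.26 and -0.69 on the SHR arrays against 0.24, 0.47 and 0.24 on the WKY arrays. SHR 1 and SHR 3 are the lowest arrays there and for the CC chemokines alike. Neuron markers shared this, with levels of -0.26, 0.28 and -0.19 on the SHR arrays against -0.10, 0.27 and -0.0037 on the WKY arrays. So did the CXC and CX3C chemokines (-0.21, 0.52 and -0.22 against 0.12, -0.089 and -0.12). The other cell type lists did not. The part of microglia, of neurons or of the oligodendrocyte lineage in the lower cytokine and chemokine values was not tested.

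Interferon-stimulated genes also varied between pools. Their array levels were -0.17, 0.34 and -0.37 on the SHR arrays against -1.17, 0.59 and 0.79 on the WKY arrays (24 genes, 1 lower, Tap1, and 0 higher at an unadjusted p under 0.05). After quantile normalization WKY 3 is the highest array for both the interferon-stimulated and the 33 inflammatory genes, and SHR 3 is the lowest SHR array for both. Of these genes 17 of 24 were below 0, but 9 of 24 without WKY 3 and 24 of 24 without WKY 1. WKY 1, by far the lowest for interferon-stimulated genes, is not the lowest for the inflammatory ones. Their part in each other's values was not tested.

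**Figure D4:**
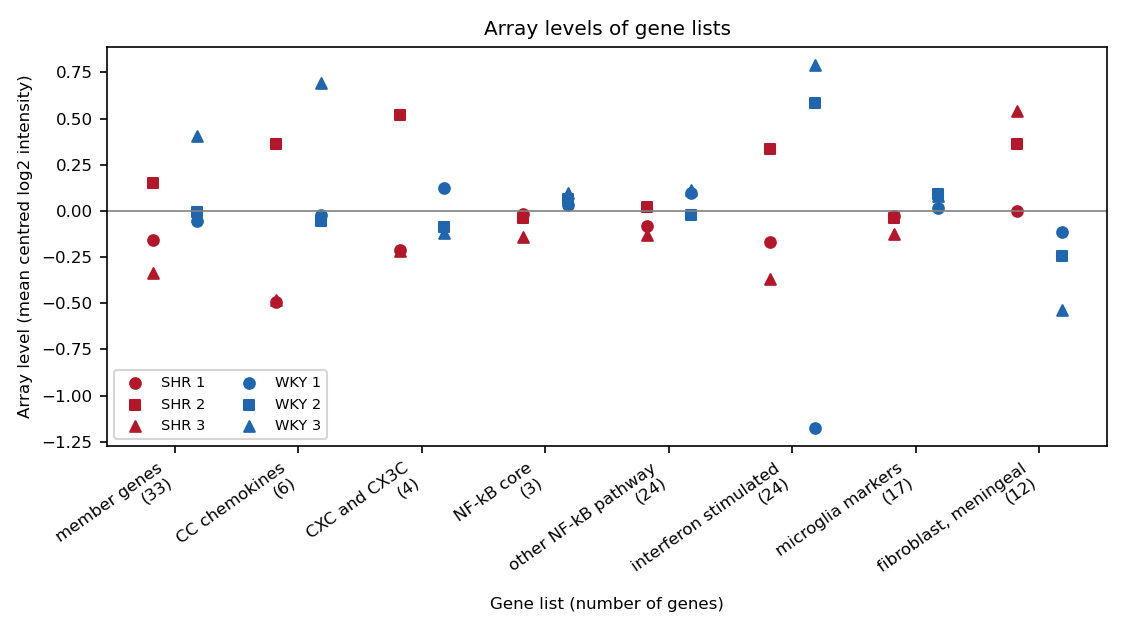
Array level (vertical axis, mean of log2 values centred per gene) of 8 gene lists (horizontal axis, number of genes in brackets) on SHR (red) and WKY (blue) arrays, with a symbol per pool number. WKY 3 (0.41) and SHR 2 (0.15) are highest for the 33 genes, the NF-kB core spans -0.14 to 0.099, and interferon-stimulated genes span -1.17 to 0.79.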

How the data were processed

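Rat brainstem culture RNA was hybridised to 6 CodeLink arrays. Per the labels and the series' design text, the authors used CodeLink Expression Analysis to obtain spot intensities less background, excluded values near the negative controls and applied quantile normalization, and the deposited series table holds linear intensities. It still holds low values (43.8 to 140 for Tlr4), so whether that exclusion was applied to it is not known, which bears on dim probes. Values above 0 were taken to log2, and those at or below 0 counted as missing. Probes with 3 valid values in one strain and 2 in the other (33249 of 33849) were compared between strains with limma (version 3.58.1, R 4.3.3), Benjamini-Hochberg adjusted over all of them at 0.05, on 3 against 3 arrays. Precision is limited by having 3 arrays per strain. Of all probes 16753 had 1 gene symbol, 165 several and 16931 none. A gene is represented by its brightest tested probe, and array levels are means of log2 values centred per gene.

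Median intensities per array before normalization were 439 to 571, and correlations were 0.969 to 0.980 within and 0.964 to 0.977 between strains. The 33 genes and all lists were chosen with earlier results of these data known. Array values were printed for those of the 33 genes with an unadjusted p under 0.05 or strains that did not overlap, the 3 with the widest range and 10 preset genes. Array values of other genes were chosen after those values were seen. Up to 4 genes of each pathway list were named by smallest p, and up to 3 markers of each cell type by brightness. Same-numbered arrays had correlations of deviations of 0.0011, 0.22 and -0.13, so numbers were not used as pairs. The fit was tested on simulated data. Alternatives covered scaling, filters, array weights and leaving out each array.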

Additional observations from a re-analysis of the deposited data

How the results depend on the processing

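Over all probes, the number past the adjusted threshold went from 0 to 1 with an offset of 50, 5 with probes valid on all 6 arrays, 18 without the dimmest 25% of probes, 28 with a trended robust prior, 5 with array weights, 13 at an adjusted p of 0.10, and 9 with 1 probe per named gene, an alternative chosen after seeing the data. No probe of the 33 genes passed in any of these (lowest adjusted p 0.512) or without any one array (lowest adjusted p 0.263, without SHR 2). With numbers as a replicate block, 0 probes passed, the median difference was -0.17 and 25 genes were lower; it changed no call. The median was -0.0029 with intensities not normalized between arrays. Direction reversed with those intensities for Il1r1 (0.16), Il6r (0.015), Tnf (0.070), Ccl7 (0.080), Icam1 (0.069), Nfkb1 (0.099), Rela (0.015) and Nfkbia (0.0014), with median centring for Il1r1 (0.011), Socs3 (-0.019) and Tlr4 (-0.14), and with array weights for Il1a (-0.031), Socs3 (-0.011) and Tlr4 (-0.0040). Leaving out each array, the differences ranged from -0.083 to 0.19 for Il1a, -1.04 to 0.033 for Il1b, -0.047 to 0.012 for Il1r1, -0.080 to 0.17 for Osmr, -0.078 to 0.14 for Socs3, -0.037 to 0.0059 for Lcn2, -0.37 to 0.21 for Tnf, -0.12 to 0.17 for Tnfrsf1a, -0.91 to 0.11 for Ccl5, -0.50 to 0.17 for Ccl7, -0.59 to 0.092 for Cxcl1, -0.11 to 0.49 for Cxcl2 and -0.42 to 0.47 for Tlr4, while the median over the 33 genes ranged from -0.20 to -0.071 and the number lower from 22 to 29. In all, 15 of the 33 genes kept their direction under all alternatives run and 18 turned in at least 1. The causes of these moves were not tested.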

Other observations

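Of 7 tested lymphocyte markers 5 were below 0 and 2 above (3 below with intensities not normalized between arrays), with a median of -0.14. The T cell genes Cd3d (-0.20 ± 0.18) and Cd3e (-0.11 ± 0.12) and the B cell gene Cd79b (-0.14 ± 0.46) were below 0, and Cd4 (0.31 ± 0.22) and Lck (0.38 ± 0.26) above. The 2 chains of the CD8 co-receptor had the lowest differences (chosen after their values were seen). Cd8a had log2 values of 6.39, 6.08 and 6.82 on the SHR arrays against 7.33, 8.13 and 8.46 on the WKY arrays, with no overlap and a difference of -1.54 ± 0.33 (SE, 3 arrays per strain, adjusted p = 0.443 in limma). Cd8b had 7.30, 7.56 and 7.78 on the SHR arrays against 8.51, 9.25 and 9.88 on the WKY arrays, a difference of -1.67 ± 0.35 (adjusted p = 0.411 in limma), again with no overlap. Under all alternatives run the difference stayed below 0, from -1.87 to -1.15 for Cd8a and from -2.02 to -1.34 for Cd8b. Neither passed over all probes. The Cd8a probe is dim, just above the dimmest 25% of probes left out in an alternative.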
